A study of Homo sapiens with 2 samples.

Results

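The genes described here are 10 chemokine ligands, CCL2, CCL5, CCL20, CXCL1, CXCL2, CXCL3, CXCL5, CXCL6, CXCL8 and CX3CL1, in the human bladder cancer cell line J82. J82 is an established line grown in culture. Cells were stained with the DNA dye Hoechst and sorted by flow cytometry into a side population (SP), which keeps little dye, and a non-side population (NSP), which holds the rest. Total RNA of each population was hybridised to 1 human exon array, making 2 arrays in all, and the labels give no treatment for either. Genes were taken from probe sets annotated to a single symbol, which measured 9 of the 10 chemokines among 14232 genes in all. Each of these 9 had 1 probe set. For CXCL1 the one probe set used here is annotated to both CXCL1 and CXCL2, and it is described apart. The members were chosen by name with their SP minus NSP values on these arrays known, so their differences are a description of the 2 arrays. There is no replicate, so no value has an error between samples and no difference has a test. The RNA is from bulk cells, in which more RNA per cell and more expressing cells cannot be told apart.

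Chemokines are small secreted proteins that draw leukocytes along a gradient by binding G-protein-coupled receptors. CCL2 attracts monocytes through CCR2, CCL5 attracts T cells and monocytes, and CCL20 is the ligand of CCR6. CXCL1, CXCL2, CXCL3, CXCL5, CXCL6 and CXCL8 (interleukin 8) attract neutrophils through CXCR2, and CXCL6 and CXCL8 also through CXCR1. CX3CL1 (fractalkine) is made as a membrane protein that can be shed, and it binds CX3CR1. Many of these genes are kept low in resting epithelial cells and are induced within hours by interleukin 1 or TNF, through NF-kB dimers that bind kappa-B sites near the gene start, and their mRNAs are short-lived because of AU-rich elements.

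The sequence before the gene start is shown for CXCL8 and CXCL2, which were higher in SP, and for CCL20, which was lower. It is also shown for CXCL3 and CXCL5, which lay close to 0. CCL2, the member with the largest difference, had no promoter sequence to print. Each printed sequence is the 150 bases that end 1 base before the annotated start. Sequences run 5′ to 3′ on the strand of the gene, from RefSeq on GRCh38.p14. Capitals mark matches on either strand to GGNNTTTCC, a 9-letter kappa-B-like motif. The windows are chr4:73740419-73740568 on the plus strand for CXCL8, chr4:74099196-74099345 on the minus strand for CXCL2, chr4:74038690-74038839 on the minus strand for CXCL3, chr4:73998678-73998827 on the minus strand for CXCL5 and chr2:227813692-227813841 on the plus strand for CCL20.
CXCL8: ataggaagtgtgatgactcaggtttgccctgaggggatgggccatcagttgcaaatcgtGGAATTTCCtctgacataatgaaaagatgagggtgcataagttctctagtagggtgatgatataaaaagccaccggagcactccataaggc
CXCL2: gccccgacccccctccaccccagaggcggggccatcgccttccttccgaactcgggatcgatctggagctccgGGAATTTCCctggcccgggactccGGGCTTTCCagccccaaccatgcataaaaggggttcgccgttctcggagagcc
CXCL3: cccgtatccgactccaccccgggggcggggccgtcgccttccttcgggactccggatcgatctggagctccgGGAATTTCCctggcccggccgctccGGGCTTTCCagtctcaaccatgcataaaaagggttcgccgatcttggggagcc
CXCL5: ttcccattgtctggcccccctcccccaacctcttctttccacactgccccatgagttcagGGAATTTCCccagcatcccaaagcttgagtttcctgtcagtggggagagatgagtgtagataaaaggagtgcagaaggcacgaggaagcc
CCL20: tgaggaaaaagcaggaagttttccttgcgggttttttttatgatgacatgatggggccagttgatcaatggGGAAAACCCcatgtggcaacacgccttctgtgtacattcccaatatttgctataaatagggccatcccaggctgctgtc

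The promoter table matched 7 of the 10 members, and CCL2, CCL5 and CX3CL1 were unmatched. All 7 windows, searched over 250 bases before the start, held the 9-letter motif, which 5.48% of the 35116 promoters in the table hold. The matched letters were GGAATTTCC in all 6 CXC members, with a second match, GGGCTTTCC, in CXCL1, CXCL2 and CXCL3, and GGAAAACCC in CCL20. The CXCL8 match starts 91 bases before the gene, and the second match of CXCL2 and CXCL3 starts 53 bases before it. In CCL20 the match is on the opposite strand and starts 79 bases before the gene. CXCL8 alone of the 7 also held TGANTCA, the motif of AP-1 factors such as FOS and JUN, starting 137 bases before the gene (6.57% of all promoters). TATAAA, the letters of a TATA box, was found in the windows of CXCL8 and CCL20 (10.7% of all promoters). Aligned over 150 bases, the CXCL2 window was 86.7% identical to that of CXCL3 and 89.3% identical to that of CXCL1, the windows of CXCL1 and CXCL3 were 88.7% identical, and the windows of CXCL5 and CXCL6 were 90% identical. The other 17 pairs among the 7 windows lay between 41.3% and 56% identity. A match is a description of these letters and does not show that a factor binds there.

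Values are log2 signals as the authors deposited them, and the median of all values on both arrays, 7.44, served as a floor for bright enough signal. On the SP array the 9 members ran from 5.04 to 11.65 with a median of 7.36, and on the NSP array from 5.07 to 10.35 with a median of 7.42. SP exceeded NSP for 5 of the 9 members and lay below it for 4. The higher value of the pair reached the floor for 4 of them: CCL2, CCL5, CCL20 and CXCL8. At least 1.5-fold higher in SP were 2 of these 4 (CCL2 and CXCL8), and 3.1% of the 7549 genes at or above the floor were as much higher. Both also passed 2-fold, as did 0.609% of those genes. At least 1.5-fold lower were 0 of the 4 members, against 1.43% of those genes. The members were chosen with these differences known, so nothing is read from that comparison of shares.

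**Figure D1:**
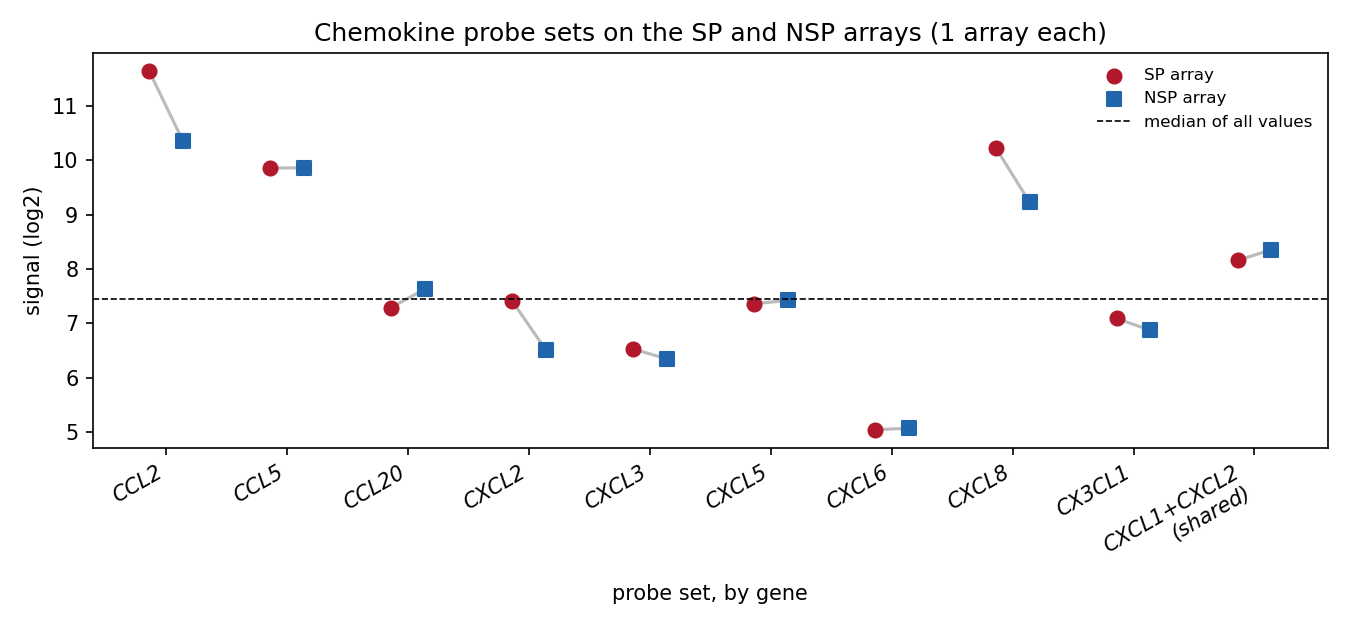
Log2 signal of each chemokine probe set on the SP array (red circles) and the NSP array (blue squares), with 1 array per population and the median of all values as a dashed line. CCL2, CXCL8 and CXCL2 stand higher on the SP array, CCL20 and the probe set shared by CXCL1 and CXCL2 stand higher on the NSP array, and the other members differ by less than 0.3.

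Among the CC chemokines, CCL2 (probe set 7385547; chromosome 17, 34255285 to 34257203) had a signal of 11.65 in SP and 10.35 in NSP. The difference of 1.30 is 2.45-fold and ranked 13 from the top among the 7549 genes at or above the floor. CCL5 (probe set 3753860; chromosome 17, 35871491 to 35880360) had 9.86 in SP and 9.86 in NSP, a difference of -0.0047. CCL2 was thus well apart on the arrays and CCL5 was not. CCL20 (probe set 2530713; chromosome 2, 227813842 to 227817556) had 7.29 in SP and 7.63 in NSP, which straddle the floor. Its difference of -0.34, 1.26-fold, was the lowest of the 9 members. Gene positions here and below are those of RefSeq on GRCh38.p14, since the sources used here name no build for the array design.

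The CXC chemokines of the neutrophil-attracting group were unlike each other. CXCL8 (probe set 2731332; chromosome 4, 73740569 to 73743716) had 10.24 in SP and 9.23 in NSP, a difference of 1.01 or 2.01-fold, which ranked 45 from the top. CXCL2 (probe set 2773434; chromosome 4, 74097040 to 74099195) had 7.41 in SP and 6.51 in NSP, a difference of 0.90 or 1.87-fold. Its SP value came just under the floor, which alone kept it out of the count at 1.5-fold. With the floor at the 25th percentile of all values (6.09), or with no floor, 3 members were at least 1.5-fold higher: CCL2, CXCL8 and CXCL2. Without a floor 2.24% of all 14232 genes were at least 1.5-fold higher, and 1.23% were as much lower, against 0 of the 9 members.

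CXCL3 (probe set 2773387; chromosome 4, 74036589 to 74038689) had 6.53 in SP and 6.35 in NSP, a difference of 0.18. CXCL5 (probe set 2773369; chromosome 4, 73995642 to 73998677) had 7.36 in SP and 7.42 in NSP, a difference of -0.06. CXCL6 (probe set 2731350; chromosome 4, 73836678 to 73838760) had 5.04 in SP and 5.07 in NSP, a difference of -0.02. All 3 were under the floor on both arrays, and their differences lay inside the range that held 95% of the 6683 genes under the floor, -0.43 to 0.46. CXCL2 lay outside that range. Its window before the gene is close in sequence to that of CXCL3, and both hold the same pair of motif matches printed above. CX3CL1 (probe set 3662696; chromosome 16, 57372490 to 57385044), the membrane-bound chemokine, had 7.09 in SP and 6.87 in NSP. Its difference of 0.22 lay inside the same range.

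CXCL1 (chromosome 4, 73869393 to 73871308) was represented only by the probe set annotated to both CXCL1 and CXCL2 (2731381). That set had 8.16 in SP and 8.36 in NSP, a difference of -0.20. It thus ran opposite to the single-symbol set of CXCL2. Averaging both sets gave CXCL2 a difference of 0.35, below 1.5-fold, so the direction of CXCL2 rests on its single-symbol set and its size depends on which sets are used. Signal from CXCL1 and CXCL2 cannot be told apart in the shared set.

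**Figure D2:**
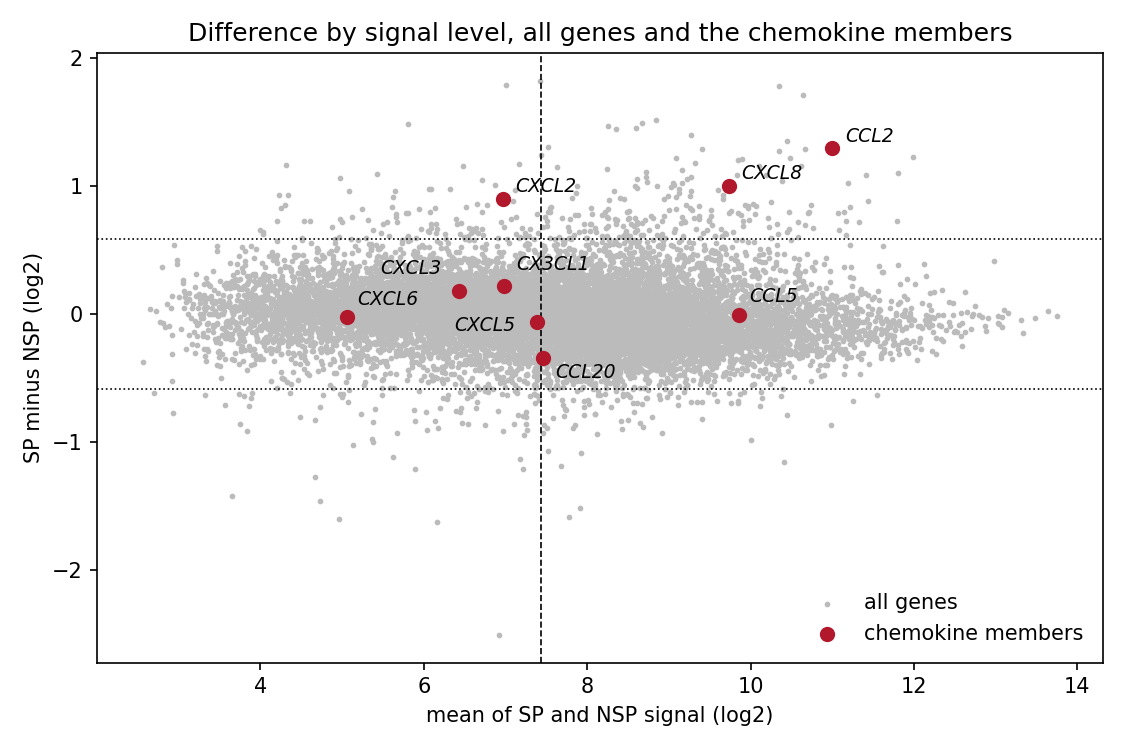
SP minus NSP (log2) against the mean of both signals (log2) for all 14232 genes (grey) and the 9 chemokine members (red); the dashed line is the floor of 7.44 and the dotted lines are 1.5-fold. CCL2 at 1.30 and CXCL8 at 1.01 lie above the upper dotted line at bright signal, CXCL2 at 0.90 lies above it left of the floor, and CCL20 at -0.34 is the lowest member.

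Over the 9 members the median difference was 0.18 and the mean 0.35. Over all 14232 genes the median was 0.00. Among genes at or above the floor the median was -0.05 and 95% of differences lay between -0.51 and 0.63, a range that CCL2 and CXCL8 exceeded and CCL5 and CCL20 did not. The spread among members, from -0.34 for CCL20 to 1.30 for CCL2, took in both directions.

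The CXC members share a genomic cluster on chromosome 4, and CCL2 lies in a cluster on chromosome 17 that holds no other member. CCL5 lies 1508 kb past the far end of the CCL2 cluster, and CCL20 and CX3CL1 lie on chromosomes 2 and 16. From CXCL8 to CXCL2, 9 chemokine genes lie within 358.6 kb of chromosome 4, of which 6 had a single-symbol probe set. The genes at both ends of this stretch, CXCL8 at 1.01 and CXCL2 at 0.90, had the highest differences, and CXCL6, CXCL5 and CXCL3 between them had -0.02, -0.06 and 0.18. PPBP, the platelet basic protein gene in the same stretch, had 4.43 in SP and 4.55 in NSP. On chromosome 17, CCL2 lies beside CCL7, CCL11, CCL8, CCL13 and CCL1 within 107.9 kb. Of these neighbours CCL7, which also attracts monocytes, had 3.86 in SP and 3.85 in NSP. CCL8 had 4.39 in SP and 4.13 in NSP, CCL11 had 6.58 in SP and 6.80 in NSP, and CCL1 had 5.97 in SP and 6.11 in NSP. None of these 4 reached the floor, and none differed by 1.5-fold.

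**Figure D3:**
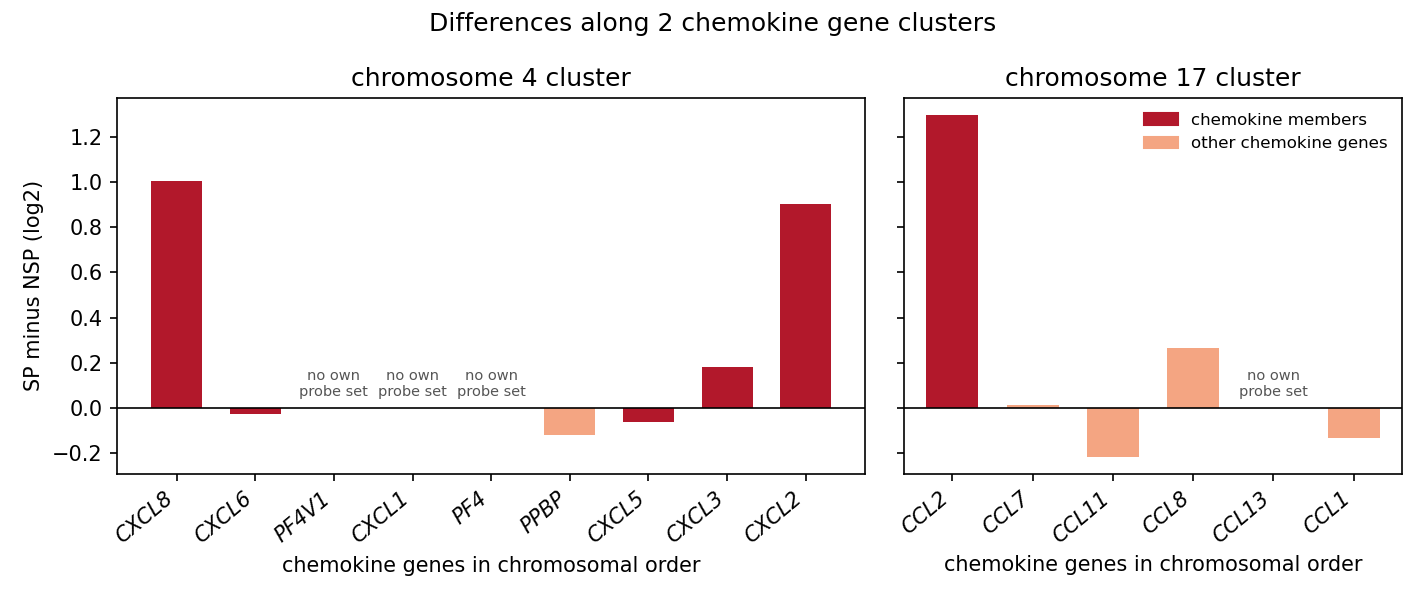
SP minus NSP (log2) of chemokine genes in chromosomal order, for the stretch of chromosome 4 from CXCL8 to CXCL2 (left) and of chromosome 17 from CCL2 to CCL1 (right); dark bars are the members, light bars other chemokine genes, and genes without a single-symbol probe set are marked. The tall bars are CXCL8, CXCL2 and CCL2, and the bars between or beside them lie from -0.22 to 0.26.

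Of the 36 remaining chemokine ligand genes, 24 were measured, and 3 of these reached the floor. Only these 3 could be called at 1.5-fold, and 0 were higher and 0 lower. Over the 7549 genes at or above the floor the shares were 3.1% higher and 1.43% lower, so nothing is read from 0 of 3. The median difference of the 24 was 0.07. CXCL10, an interferon-induced ligand of CXCR3, had 8.38 in SP and 8.74 in NSP, a difference of -0.36. CXCL11, another CXCR3 ligand, had 7.56 in SP and 7.61 in NSP. CXCL16, a membrane-bound ligand of CXCR6, had 8.61 in SP and 8.52 in NSP. The 21 ligands under the floor differed by -0.22 to 0.32.

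Of 23 receptor genes 18 were measured and 1 reached the floor. That one, CXCR4, the receptor of CXCL12, had 8.98 in SP and 8.67 in NSP, a difference of 0.31. CCR2, the receptor of CCL2, had 4.70 in SP and 3.77 in NSP, a difference of 0.93 between signals far under the floor. CCR6, the receptor of CCL20, had 4.89 in SP and 4.92 in NSP. A set annotated to both CEP43 and CCR6 had 7.54 in SP and 7.80 in NSP, and its signal cannot be assigned to either gene. CX3CR1, the receptor of CX3CL1, had 5.83 in SP and 5.71 in NSP. Neither CXCR1 nor CXCR2, which bind CXCL8, had a probe set of its own. The set annotated to CXCR1, CXCR2 and the pseudogene CXCR2P1 had 6.002 in SP and 5.652 in NSP, and that of CXCR2 and CXCR2P1 had 5.06 in SP and 5.12 in NSP.

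The cytokines that induce chemokine genes, with their receptors and adaptors, held 3 genes at least 1.5-fold higher and 0 lower among 17 measured, 13 of them at or above the floor, with a median of 0.07. For this list and the lists of transcription factors and mRNA decay that follow, the shares over all 7549 genes at the floor or brighter were 3.1% higher and 1.43% lower. IL1A had 11.25 in SP and 9.46 in NSP, and IL1B had 8.17 in SP and 6.87 in NSP. Both encode interleukin 1 forms, which act on the receptor encoded by IL1R1 and IL1RAP. The IL1B values straddle the floor, so that gene was called only because its SP value reached it. TNF, under the floor, had 6.06 in SP and 6.17 in NSP. IL1RAP was 1.63-fold higher in SP, with 8.31 in SP and 7.60 in NSP, and IL1R1 had 8.32 in SP and 8.05 in NSP. Transcription factors of chemokine promoters and their regulators had 5 genes at least 1.5-fold higher and 0 lower among 17 measured, all at or above the floor, with a median of 0.38. The AP-1 family genes JUN, FOS and ATF3 were 1.71-fold, 1.65-fold and 2.08-fold higher. JUNB and FOSL1, of the same family, were 1.17-fold and 1.33-fold higher, under the threshold. The NF-kB inhibitors TNFAIP3 and NFKBIA were 2.56-fold and 1.58-fold higher. NFKBIE, another NF-kB inhibitor, had 9.07 in SP and 9.30 in NSP, a difference of -0.23. The NF-kB subunit genes, all under 1.5-fold, had differences of 0.42 (REL), 0.39 (NFKB1), 0.19 (RELA), 0.06 (NFKB2) and -0.20 (RELB). For comparison, the 7549 genes at the floor or brighter had a median of -0.05. These lists were written with earlier results of these arrays known, so their direction is no independent evidence.

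Regulators of AU-rich mRNA decay had 3 genes at least 1.5-fold higher and 0 lower among 12 measured, with a median of 0.10. ZFP36 (tristetraprolin), which binds AU-rich elements and promotes decay, was 1.54-fold higher with 10.01 in SP and 9.38 in NSP. Its relative ZFP36L1 was 1.83-fold higher, and ZFP36L2 was 1.44-fold higher, under the threshold. DUSP1, the phosphatase that switches off p38 kinase, was 2.34-fold higher with 12.60 in SP and 11.37 in NSP. ELAVL1, which stabilises such mRNAs, had a difference of -0.24, and KHSRP, which promotes their decay, one of -0.22.

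Of the genes that cleave chemokines or hold them on the cell surface, 13 were measured, with a median difference of 0.08. The floor was reached by 2 of them, SDC2 (9.30 in SP and 9.15 in NSP) and SDC4 (10.18 in SP and 10.17 in NSP), both heparan sulfate proteoglycans. DPP4, a peptidase that trims chemokine ends, had 6.05 in SP and 5.26 in NSP, a difference of 0.78 with both values under the floor. Of 16 measured receptor signalling genes 13 reached the floor, and 0 of these 13 were called at 1.5-fold either way. The shares over all 7549 genes at the floor or brighter were 3.1% higher and 1.43% lower, so nothing is read from that count. The median difference of the 16 was -0.05. The lowest was PLCB3, a phospholipase C, with 8.41 in SP and 8.79 in NSP. ARRB1, an arrestin that ends receptor signalling, had 9.003 in SP and 9.328 in NSP, GRK6, a receptor kinase, had 9.07 in SP and 9.37 in NSP, and the GTPase gene CDC42 had 8.65 in SP and 8.34 in NSP.

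**Figure D4:**
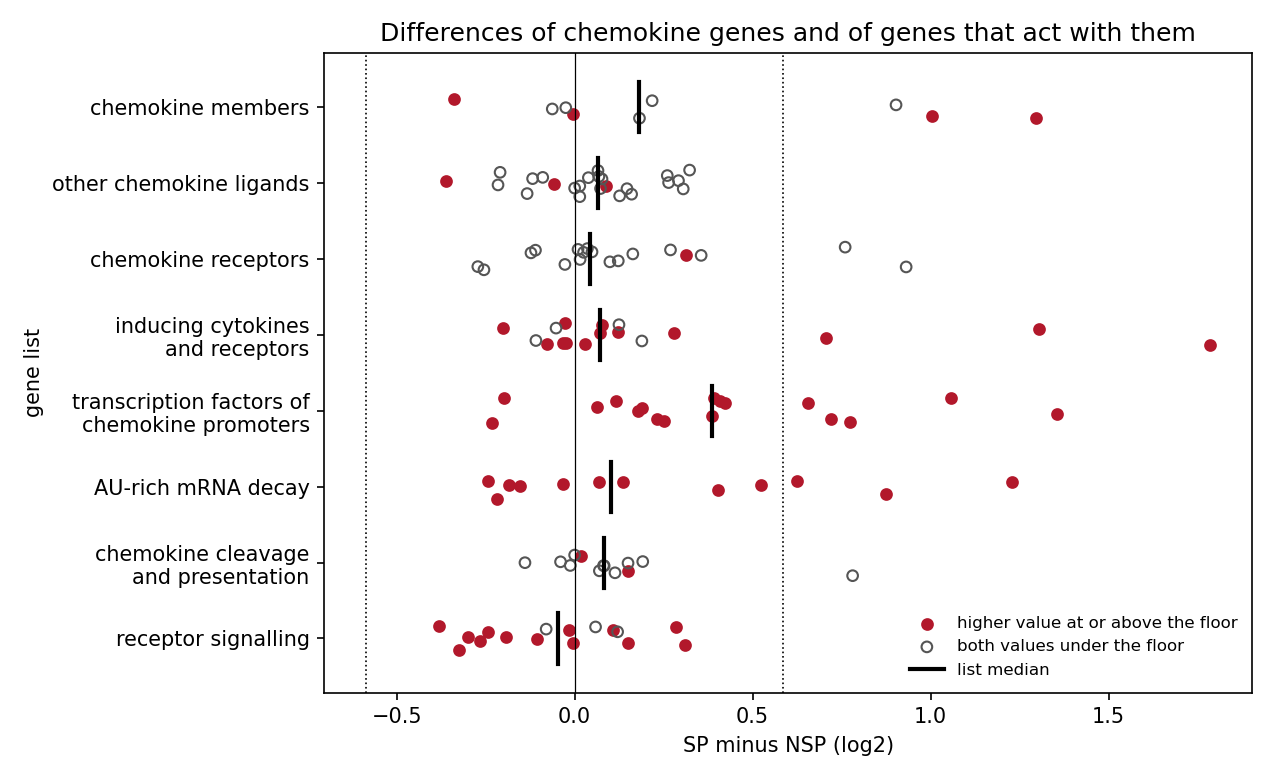
SP minus NSP (log2) of each measured gene in 8 lists, with filled red points for genes whose higher value reached the floor, open points for genes under it, black bars for list medians and dotted lines at 1.5-fold. Transcription factors have the median furthest right at 0.38, CCL2, CXCL8 and CXCL2 stand apart from the other members, and receptor signalling genes have a median of -0.05.

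The genes most like each called member, by the Euclidean distance between their SP and NSP values on the 2 arrays, were THBS1, ZFAND5 and SLC38A2 for CCL2 and KLF10, WTAP and TUFT1 for CXCL8. THBS1, the matrix protein thrombospondin 1, had 11.70 in SP and 10.67 in NSP. KLF10, a zinc finger transcription factor, had 10.12 in SP and 9.20 in NSP. Probe sets of different genes have no common scale, so this likeness describes array signals only.

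Markers of cells that themselves make or answer chemokines were examined beside these results. Of 12 measured leukocyte markers 2 reached the floor, CD14 (7.73 in SP and 7.64 in NSP) and NKG7 (7.56 in SP and 7.31 in NSP), and their summed linear signal was 989 in SP and 891 in NSP. The pan-leukocyte gene PTPRC had 3.74 in SP and 3.80 in NSP. Summed signals were 526 in SP and 483 in NSP for 4 platelet and red cell markers, of which GP9 reached the floor, and 739 in SP and 717 in NSP for 8 endothelial markers, of which CLDN5 did. The 7 fibroblast markers summed to 3571 in SP and 4265 in NSP, with COL1A1, COL3A1, LUM and PDGFRB at or above the floor. SP exceeded NSP for 4 of these 7 and lay below it for 3, and their median was 0.07. LUM and COL3A1 had differences of -0.40 and -0.35, and PDGFRB one of 0.54. RMA gives no value of 0, so absence cannot be read from these signals, and their part in the chemokine differences was not tested. For the label of the line, 6 of 13 urothelial and epithelial markers reached the floor (KRT8, KRT18, KRT19, KRT7, PPARG and FGFR3). PPARG was 1.62-fold higher in SP, and FGFR3 had a difference of -0.42. The differences of KRT8, KRT18, KRT19 and KRT7 were 0.42, 0.25, 0.15 and 0.02. EPCAM (4.42 in SP and 4.42 in NSP) and CDH1 (6.78 in SP and 7.01 in NSP) did not reach the floor. Nor did GATA3 (6.98 in SP and 6.79 in NSP) or the uroplakin genes UPK1A, UPK1B, UPK2 and UPK3A. The brightest of these uroplakin genes, UPK2, had 7.39 in SP and 7.09 in NSP. For the label of the sort, the efflux transporter genes ABCB1 and ABCC1 were 1.62-fold and 1.30-fold higher in SP, and ABCG2 had 6.14 in SP and 5.69 in NSP, both under the floor.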

How the data were processed

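The table holds log2 values that the authors deposited for 22011 probe sets on 2 arrays. Per the submitters' processing notes, RMA and Partek were used; versions, the genome build, the probe set definition and filters are not given in the sources used. RMA in general subtracts background, equalises array distributions and summarises probes on the log2 scale, which compresses differences of dim probe sets. No probe intensities were analysed here, so detection above background is unknown, and 2 arrays limit the precision.

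The platform annotation gave 1 symbol for 14432 probe sets, several for 2408 and none for 5171. Symbols were updated by Entrez identifier in RefSeq (GRCh38.p14), which matched 14404. Probe sets of a gene were averaged. The quantity analysed is SP minus NSP, and a fold is 2 to the power of its size. A gene was called at 1.5-fold when at least 1 of its values reached the floor, which is the median over both arrays. With 1 sample a group no test was run.

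Members and lists (14 lists, 209 entries, 173 measured) were chosen with earlier results of these data known. The naming rule took all members, up to 4 genes per list with the largest difference at or above the floor, the receptors of the members, markers at or above the floor, 3 dye efflux transporters and the 3 genes most like each called member. TNF, NFKBIA, NFKBIE, the NF-kB subunit genes, JUNB, FOSL1, ELAVL1, KHSRP, DPP4, PTPRC, EPCAM, CDH1, GATA3 and the uroplakin genes were named after their values were seen. So were the neighbours in the gene clusters and the motifs searched. Promoter windows were aligned globally. The calling code was run on simulated pairs of arrays in which bright genes were given shifts well above the threshold. That run checks the code only and does not show how reliable the calls are on these arrays. Python 3.11.15, numpy 2.4.6, pandas 2.3.3, statsmodels 0.14.6, biopython 1.88 and matplotlib 3.10.9 were used. Alternatives were centring, quantile normalisation, removal of a lowess trend (span 0.3), the brightest probe set, other floors, a 2-fold threshold, the mean over members, and probe sets of several symbols.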

Additional observations from a re-analysis of the deposited data

How the results depend on the processing

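The sign of each difference of at least 0.3 in size (CCL2, CXCL8, CXCL2 and CCL20) was kept under centring, quantile normalisation, removal of the trend on signal level, the brightest probe set and probe sets of several symbols. CCL2 ran from 1.30 to 1.35, CXCL8 from 1.01 to 1.07 and CCL20 from -0.34 to -0.33 over these. Of 45 values of single members under alternatives, 44 moved by less than 0.1 and 1 moved further: CXCL2 came to 0.35 with the set it shares with CXCL1. Many of the 44 could not move, so that count is no measure of robustness. Each member has 1 probe set, so taking the brightest set changes nothing. Sets of several symbols could change CXCL2 alone, and centring shifts every difference by the same small amount. CCL5, near 0, ran from -0.0047 to 0.06. The count of members at least 1.5-fold higher was 2 or 3 under the alternatives run, and that of members as much lower was 0. The median over members was 0.35 as a mean and 0.50 over the 4 members at or above the floor. It was 0.09 without CCL2, and also 0.09 when probe sets of several symbols were used. Over all genes, 234 were higher and 108 lower at 1.5-fold. A 2-fold threshold gave 46 higher and 9 lower, and no floor gave 175 lower. No paired analysis was possible because each population has 1 array, and for the same reason no replicate could be left out. Dim signals limit CXCL2, CXCL3, CXCL5, CXCL6, CX3CL1 and most receptors, where differences are compressed.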

Other observations

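The motifs found before the chemokine genes were looked up before other genes as a description with no test. The search covered the measured genes at or above the floor that the promoter table matched, which leaves out CCL2 and CCL5. Of 380 genes with GGNNTTTCC in the 250 bases before the start, 14 (3.68%) were at least 1.5-fold higher in SP, against 182 (3.08%) of 5901 without it, and 0.526% against 1.42% were as much lower. Of 324 genes with TATAAA there, 32 (9.88%) were at least 1.5-fold higher, against 164 (2.75%) of 5957 without it, and 1.54% against 1.36% were as much lower. Of 217 genes with TGANTCA, 5.07% were at least 1.5-fold higher, against 3.05% of 6064 without it, and 1.84% against 1.35% were as much lower. CXCL8 is among the genes with all 3 motifs, and CCL20 among those with GGNNTTTCC and TATAAA, so these counts include them.

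The identifier of the CCL2 probe set belongs to a small separate number range that holds 8 of the 22011 probe sets. These 8 had a median difference of 0.01, and 50% were higher in SP.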
